A study of Mus musculus with 6 samples.

Results

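The AP-1 and Egr immediate-early factors examined here are 10 genes of 18193 with a probe set of a single symbol: the Fos family (Fos, Fosb, Fosl1 and Fosl2), the Jun family (Jun, Junb and Jund) and 3 of the Egr zinc finger factors (Egr1, Egr2 and Egr3). They were taken by symbol, as probe sets whose platform annotation gives exactly 1 gene symbol equal to a member's. This found 16 of 45037 probe sets, for 10 of 10 genes, 6 of them with 2 probe sets and 4 with 1. RNA came from 6 cultures of primary dermal fibroblasts on Affymetrix Mouse430_2 arrays. All 6 came from the skin of B6 mouse pups of mixed sex, were grown in serum-containing medium and were labelled passage 6, and the sample labels give an age of 0 to 2 days, where the design text gives 0 to 3. The 3 control cultures had nothing added (no vehicle is stated), and 3 Et1 cultures received 100 nM of freshly prepared synthetic human, porcine endothelin 1 for 24 hours, the only time sampled. The labels call the 3 arrays of a group biological replicates and do not say how many pups each came from, so p-values measure the spread between these arrays, which may be partly technical. According to the design text, cells were divided between a treated and an untreated culture, but nothing ties the replicate numbers to that division.

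AP-1 is a dimer of basic leucine zipper proteins. Jun proteins pair with each other or with Fos proteins, while Fos proteins need a Jun partner, and the dimer binds the sequence TGANTCA and related sites. Egr proteins bind GC-rich sites through zinc fingers and are held back by the corepressors Nab1 and Nab2. In fibroblasts, serum and agonists of G-protein-coupled receptors, the class to which endothelin receptors belong, raise transcripts of Fos, Junb and Egr1 within minutes, and the transcripts are short-lived. Serum response factor at CArG boxes and CREB-type factors at TGACG-containing sites are classic inputs to these genes, and Fosl1, Fosl2 and Jund are known as members that are more evenly expressed or appear later.

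The start regions of members with unlike differences are shown to place such sites beside the values below. RefSeq windows (build GRCm38.p6, 250 bases before to 50 after a start) were on hand for 7 of the 10 members, in 11 windows. Egr2 had 5 of the 11, some of them overlapping. Counts below are by gene for the members and by window for the whole set, so they are not directly comparable. The motif TGACG, read on both strands, lay in windows of 4 of these 7 genes (Fos, Fosb, Junb and Egr2) and in 20.8% of all 32851 windows. CArG boxes, the serum response factor site, lay in windows of 1 of the 7, Egr2, and in 1.63% of all windows. TGACATCA, the variant site known from Jun, was found on either strand only in Jun among the 7 (3.62% of all windows). TGANTCA, which reads the same on both strands, was in 0 of the 7 (7.81%), and GCGNGGGCG, an Egr-type site, was in Fosl2 and Fosb (5.55%, both strands). The first 3 lines give the 250 bases before the start of Fos at chr12:85473640-85473889 (plus strand), of Junb at chr8:84978749-84978998 (minus strand) and of Jun at chr4:95052223-95052472 (minus strand). Capitals mark TGACG in Fos and Junb and TGACATCA in Jun. The last 2 lines give the CArG boxes of Egr2 in capitals with 10 bases on each side, at chr10:67537484-67537513 and chr10:67537787-67537816 (plus strand).
Fos: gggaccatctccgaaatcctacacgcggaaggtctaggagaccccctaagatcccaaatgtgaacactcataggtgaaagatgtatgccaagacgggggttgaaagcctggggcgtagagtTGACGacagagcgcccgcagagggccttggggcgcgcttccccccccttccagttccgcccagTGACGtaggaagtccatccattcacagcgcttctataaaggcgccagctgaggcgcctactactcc
Junb: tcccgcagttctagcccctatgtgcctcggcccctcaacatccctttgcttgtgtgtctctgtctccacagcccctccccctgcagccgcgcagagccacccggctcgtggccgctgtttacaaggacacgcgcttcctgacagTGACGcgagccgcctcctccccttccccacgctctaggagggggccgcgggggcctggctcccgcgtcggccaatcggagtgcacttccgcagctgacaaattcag
Jun: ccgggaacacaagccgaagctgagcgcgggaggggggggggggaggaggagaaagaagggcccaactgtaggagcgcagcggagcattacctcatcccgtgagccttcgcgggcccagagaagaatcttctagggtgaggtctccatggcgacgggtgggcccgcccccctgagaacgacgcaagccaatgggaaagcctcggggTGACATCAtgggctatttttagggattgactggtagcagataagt
Egr2, first box: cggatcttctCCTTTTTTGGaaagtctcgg
Egr2, second box: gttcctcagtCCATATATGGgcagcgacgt
The 2 marks in Fos begin 129 and 66 bases before its start, the mark in Junb 106 bases before and that in Jun 45 bases before. Sequence further upstream was not searched. These promoters and motifs were picked after the values were seen, and a match is a description of letters, not of binding.

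Deposited signals had 2% trimmed means of 91.7 to 179 and were scaled to a common 139, and every signal below is on that scale. Signals of different probe sets are not comparable as transcript levels. The ratio of 3' to 5' Gapdh control signals was 0.677 to 0.775, and that of actin 1.15 to 1.23. Bacterial spike-in controls split the arrays by their mean log2 signal into a low set (control replicates 1 and 2 and Et1 replicate 2, at 3.45 to 3.57) and a high set (control replicate 3 and Et1 replicates 1 and 3, at 4.75 to 5.64), as was known from an earlier analysis of these arrays. Controls thus had 1 array and Et1 cultures 2 arrays in the high set. Of 10 fibroblast markers 9 passed the filter on dim probe sets. The summed signal of the 10 was 26302 to 39688 on controls and 18660 to 30936 on Et1 arrays, and Lum, a proteoglycan of dermal matrix, was below the filter. These sums also follow the spike-in sets in part. Col1a1 read 6728, 6632 and 5633 on the low set and 1897, 1882 and 1159 on the high set. Over the 9 tested the median log2 difference of high minus low set was -0.30. Their median of Et1 minus control was -0.50, with 8 lower and 1 higher mean. Limma called 0 of the 9 at an adjusted p of 0.05 and, blocked on spike-in set, 3 lower. These were Pdgfrb (-1.04, adjusted p = 0.00684 by limma), Thy1 (-0.83, adjusted p = 0.0106) and Col3a1 (-0.93, adjusted p = 0.0163). The blocked fit called 2.47% of all tested probe sets lower. Summed signals were 338 to 512 against 376 to 455 for 6 keratinocyte markers and 390.3 to 457 against 410.1 to 488 for 6 macrophage and leukocyte markers. They were 193 to 267 against 260.2 to 296 for 6 melanocyte markers, of which 4 passed the filter, and 100.3 to 125 against 119.65 to 208 for 6 endothelial markers, of which Cdh5 and Kdr did. Cdh5, Kdr and the melanocyte marker Dct passed only through the Et1 arrays. Their control means of 37.5, 37.8 and 39.0 lay below the filter. Among the markers that did not pass, the melanocyte marker Tyrp1 (means 27.2 and 45.1) and the endothelial markers Tek (6.85 and 26.0) and Emcn (18.4 and 29.7) had all Et1 arrays above all controls. Mlana and Tie1 had means of at most 2.94 and 2.52. The 5 skeletal muscle markers summed to 299 to 368 and 293 to 324.

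Of the 16 member probe sets, 14 from 9 genes had a mean signal at or above the median of all probe sets (41.0) and were tested. Fos had the largest difference among them, at 2.29-fold lower signal on Et1 arrays, followed by Egr3 in both of its probe sets and by Junb. In Fosl1, Jun and Egr2 no probe set differed by more than 1.21-fold in either direction. Limma called 0 of the 14 at an adjusted p of 0.05, where it called 0.346% of all 22519 probe sets (0.249% lower and 0.0977% higher), and the adjusted p of the members ran from 0.0892 to 0.977. At an unadjusted p under 0.05 there were 4 of 14, all with lower means on Et1 arrays, where 12.3% of all tested probe sets reached that level, 6.38% lower and 5.94% higher. Over the 14, 10 had lower and 4 higher means, with a median log2 fold change of -0.37, while 45.9% of all tested probe sets had lower means. In bulk RNA, fewer cells of a type and less RNA per cell cannot be told apart.

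Within the Fos family, Fos had lower signals on Et1 arrays, while Fosl2 had lower and Fosl1 slightly higher means. The 95% intervals of Fosl2 and Fosl1 included 0 in every probe set. Signals of Fos, the founding AP-1 subunit, were 249.5, 149.6 and 169 on control replicates 1 to 3 and 97.7, 70.8 and 76.0 on Et1 replicates 1 to 3. Every Et1 array lay below every control array. The group means were 189 ± 53.0 and 81.5 ± 14.3 (SD, n = 3), with a log2 fold change of -1.19 (95% interval -1.73 to -0.65, SE 0.24, adjusted p = 0.0892 by limma). The difference was -1.45 within the low and -0.97 within the high spike-in set, so it was present in both. Blocking on spike-in set, limma called Fos lower, at -1.21 (SE 0.24, adjusted p = 0.0234), the 1 of 14 member probe sets called in that fit, which called 3.85% of all tested probe sets (2.47% lower and 1.39% higher). Without control replicate 1, its highest array, the log2 fold change was -0.98 (adjusted p = 0.367 by limma), and over the 6 arrays left out in turn the adjusted p ran from 0.0803 to 0.367.

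**Figure D1:**
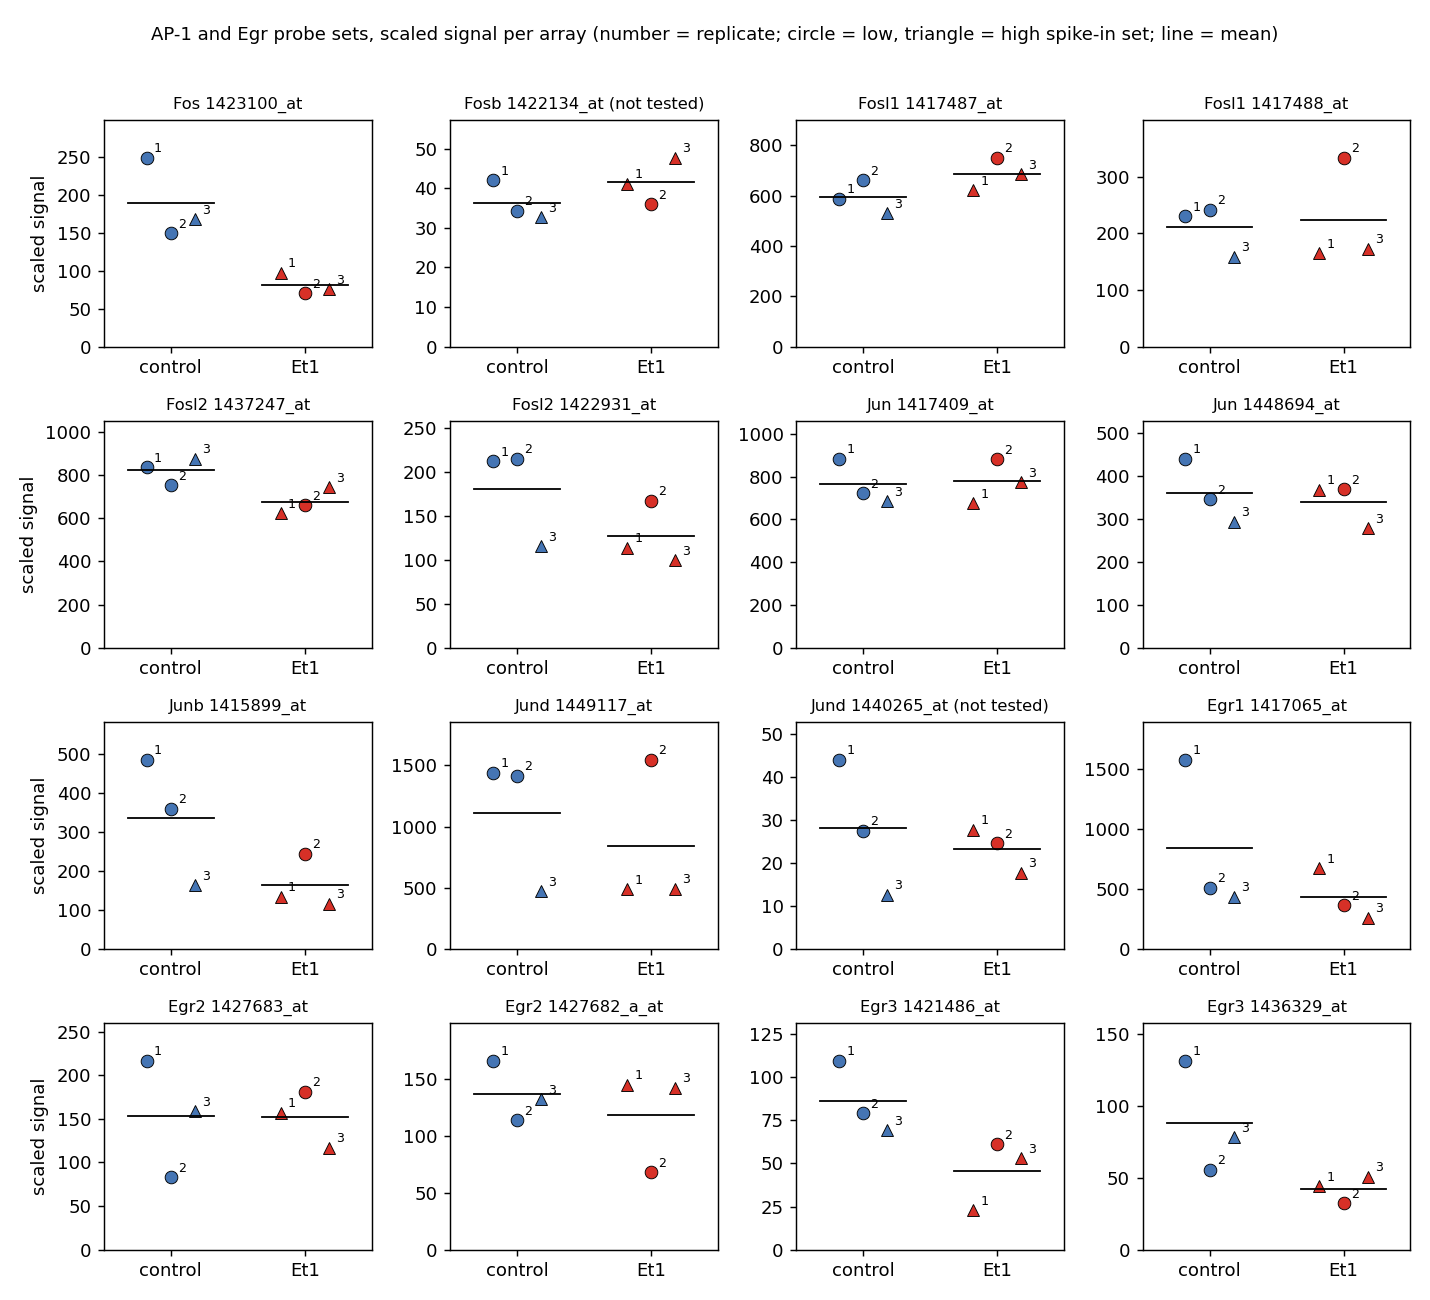
Scaled signal (y axis, linear, from 0) of the 16 probe sets in the 3 control and 3 Et1 arrays; each point is 1 array, the number its replicate, a circle the low and a triangle the high spike-in set, and the line the group mean. Fos shows no overlap between groups, Jund in the brighter of its 2 panels, drawn first, separates by symbol shape rather than by group, and control replicate 1 stands far above the other arrays for Egr1, at 1578.

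Fosl2, or Fra-2, encodes a Fos relative that lacks the strong activation domain of Fos. Its brighter probe set read 838, 752 and 876 on controls and 624, 661 and 743 on Et1 arrays, again without overlap, a log2 fold change of -0.28 (95% interval -0.61 to 0.04, adjusted p = 0.471 by limma). Its dimmer probe set read 213, 215 and 116 on controls and 114, 168 and 100.1 on Et1 arrays. In that one the high spike-in arrays held the 3 lowest signals, and the groups overlapped.

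Fosl1, or Fra-1, another such relative that follows sustained MAP kinase signalling, had slightly higher means. Its brighter probe set read 589, 660.4 and 531 on controls and 621, 750.1 and 686 on Et1 arrays, a log2 fold change of 0.21 (95% interval -0.14 to 0.56, adjusted p = 0.618 by limma). The other read 230.2, 242 and 159 against 164, 333 and 173, at 0.03 (-0.64 to 0.71). Each probe set overlapped between groups, and the interval of the brighter one leaves room for a rise of up to 1.47-fold. Fosb, which gives rise to the full-length and delta-FosB proteins, was below the filter at 32.7 to 42.0 on controls and 35.9 to 47.6 on Et1 arrays. It was not tested.

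Among the Jun family, Jun itself hardly differed between groups, while Junb and Jund were called between the spike-in sets. Jun, the main partner of Fos, read 883, 722 and 686 on controls and 677, 881 and 774 on Et1 arrays in its brighter probe set. The groups overlapped throughout, with a log2 fold change of 0.03 (95% interval -0.35 to 0.40, adjusted p = 0.964 by limma). The other probe set read 439.9, 346 and 293 against 368, 369 and 278, at -0.08 (-0.54 to 0.38).

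Junb, a Jun relative often described as a weaker activator, read 485, 359 and 163 on controls and 134, 244 and 115 on Et1 arrays. Control replicate 3 fell inside the Et1 range, and the 3 arrays of the high spike-in set were the 3 lowest of all. The means were 336 ± 162 and 164 ± 69.5 (SD, n = 3), a log2 fold change of -0.97 (SE 0.42, adjusted p = 0.399 by limma). The high set was lower than the low set by 1.17 on the log2 scale with the group in the fit (SE 0.17, adjusted p = 0.00168 by limma). Within the sets Et1 minus control was -0.77 and -0.39, and blocked on the set it was -0.58 (adjusted p = 0.0885). It was -1.42 without control replicate 3 and -0.64 without control replicate 1.

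Jund, an abundant Jun relative known for restraining growth, separated by spike-in set and not by group in its brighter probe set. Its signals were 1442 and 1416 on control replicates 1 and 2 and 1547 on Et1 replicate 2. They were 468 on control replicate 3 and 488 and 492 on Et1 replicates 1 and 3. The sets are thus parted by a gap from 492 to 1416, wider than the spread inside either. High minus low set was -1.63 (SE 0.09, adjusted p = 3.19e-05 by limma), and Et1 minus control was 0.11 within the low and 0.07 within the high set. Without a block the Et1 difference read -0.46, and with it 0.09 (SE 0.09, adjusted p = 0.687). The dimmer probe set of Jund, not tested, read 12.6 to 44.1 on controls and 17.7 to 27.8 on Et1 arrays.

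Besides Junb and Jund, the dimmer probe sets of Fosl1 and Fosl2 were called between the spike-in sets, at -0.78 and -0.77. These 4 of 14 compare with 16.7% of all tested probe sets called between the sets, 9.99% lower and 6.71% higher in the high set. In each of the 4, all high-set arrays lay below all low-set arrays, as for 16.6% of all tested probe sets (32.8% in either direction). For Fosl1 and Fosl2 the brighter probe set of the same gene overlapped between the sets, at -0.22 and 0.09. What the sets stand for is not given in the labels, and their part in the Et1 differences was not tested beyond the block.

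**Figure D2:**
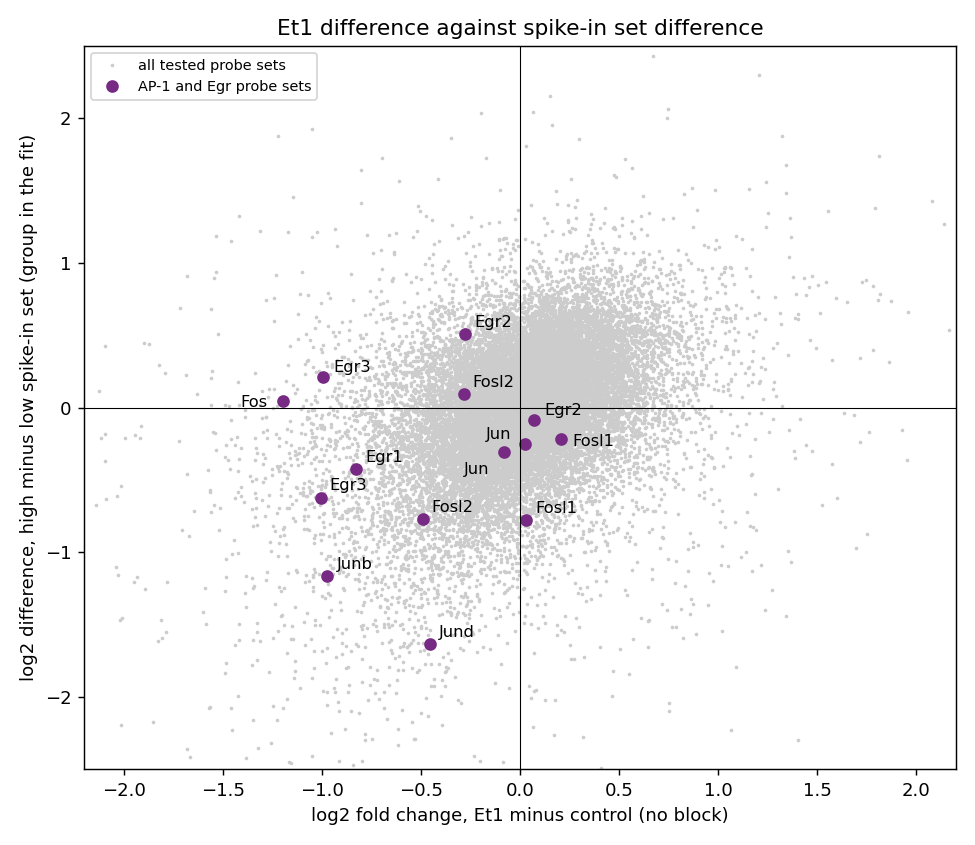
Log2 fold change of Et1 minus control without a block (x axis) against the log2 difference of high minus low spike-in set with the group in the fit (y axis), for all tested probe sets (grey) and the 14 of the members (purple); 68 grey points lie outside the axes. Fos and 1 probe set of Egr3 lie left of the centre and near 0 on the y axis, while Jund and Junb are the lowest members on it.

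In the Egr family, Egr3 had lower signals on all Et1 arrays, Egr1 overlapped between groups with a lower mean, and Egr2 had no common direction. Egr3, a zinc finger factor that shares its binding site with Egr1, read 109.6, 79.2 and 69.2 on controls and 22.8, 61.3 and 53.1 on Et1 arrays in 1 probe set. The other read 132, 55.7 and 78.2 on controls and 44.2, 32.3 and 50.7 on Et1 arrays. In both probe sets every Et1 array lay below every control array, with log2 fold changes of -1.01 (SE 0.40) and -0.99 (SE 0.36), and neither passed (adjusted p = 0.358 and 0.310 by limma). The means over all 6 arrays, 65.9 and 65.5, were not far above the filter of 41.0. The Et1 means were 45.7 and 42.4, and the Et1 signals of 22.8 and 32.3 lay below it. The differences thus rest in part on signals near or under the filter. With 50 added to each signal the differences were -0.52 and -0.55. Without Et1 replicate 1 the first was -0.57. With Fos and the brighter probe set of Fosl2, they are the 4 of 14 whose groups did not overlap, all lower on Et1 arrays, where 17.6% of all tested probe sets did not overlap, 8.11% lower and 9.47% higher.

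Egr1, the best known member, read 1578, 511 and 434 on controls and 672, 362 and 258 on Et1 arrays. Its 1 probe set had its highest signal on control replicate 1, far above the other arrays, and Et1 replicate 1 lay above the remaining controls. The log2 fold change was -0.83 (95% interval -1.97 to 0.32, SE 0.50, adjusted p = 0.553 by limma). It was -0.25 without control replicate 1, and -1.31 within the low but -0.06 within the high spike-in set.

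Egr2, or Krox20, known for its part in myelinating Schwann cells, showed no shared direction between its probe sets. One read 217, 83.1 and 159 on controls and 157, 181 and 117 on Et1 arrays, a log2 fold change of 0.07 (95% interval -0.70 to 0.85). The other read 166, 114 and 132 against 145, 68.2 and 142, at -0.27 (-0.98 to 0.43). Its groups overlapped in both probe sets (adjusted p = 0.952 and 0.756 by limma). Of the 7 genes with a window, Egr2 was the 1 with a CArG box inside it. Boxes further upstream in the others were not searched for, and Egr1 and Egr3 had no window.

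**Figure D3:**
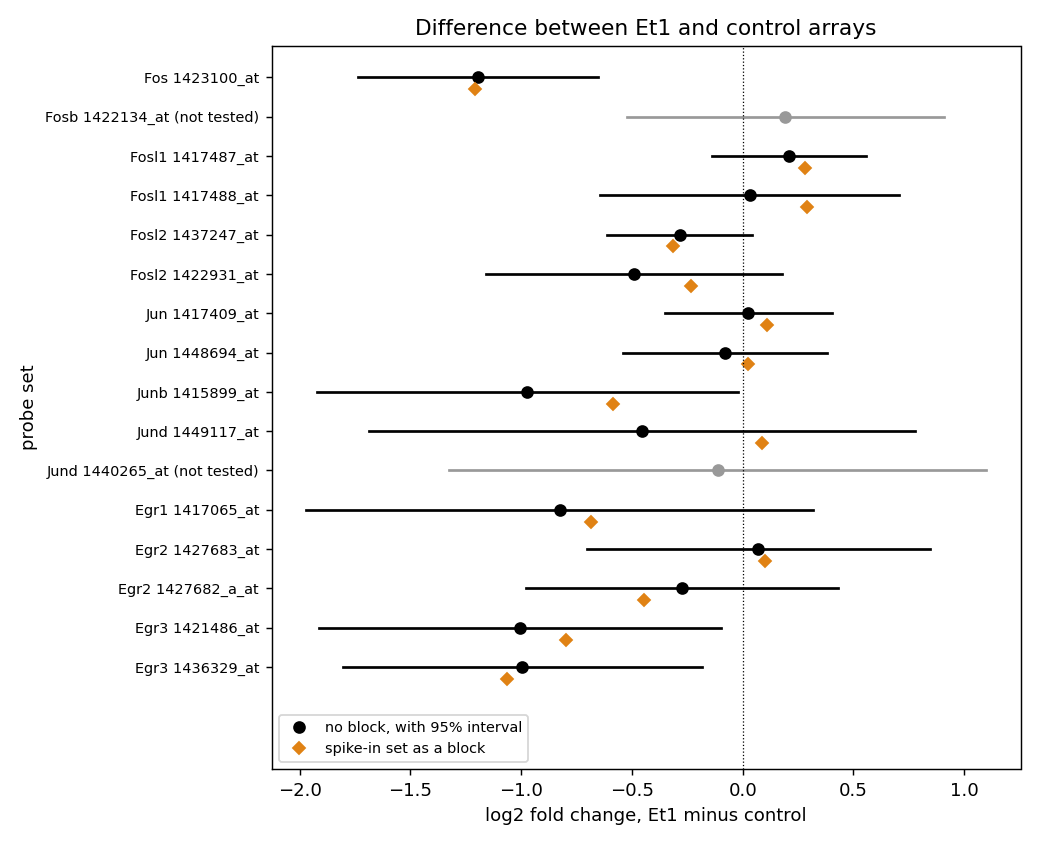
Log2 fold change of Et1 minus control (x axis) for the 16 probe sets, with the 95% interval of limma as a line, and as an orange diamond the value when blocked on spike-in set. Only the intervals of Fos, Junb and both Egr3 probe sets end below 0, and the diamonds of Junb and Jund lie closer to or past 0, at -0.58 and 0.09; the 2 grey probe sets were not tested.

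One array was high for many of these probe sets. Control replicate 1 held the highest of the 6 signals for 9 of the 14 tested member probe sets, against 14.6% of all tested probe sets. The 9 are those of Fos, Junb, Egr1, Jun, Egr2 and Egr3, the last 3 counted by both probe sets. Fosl1, Fosl2 and Jund were highest on other arrays. For the brighter Jun probe set the lead was small, at 883 against 881 on Et1 replicate 2. Among the 3 control arrays control replicate 1 was highest for 10 of 14, against 27.9% of all. It was the lowest of the 6 for 0 of 14. Without it, the log2 fold changes were -0.64 for Junb and -0.66 for the second Egr3 probe set, and limma called 4 probe sets in the whole table instead of 78 (also 4 without control replicate 2). This comparison of arrays was made after the values were seen.

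Other genes of the pathway were read from lists chosen with earlier results of these data known, each gene by its brightest tested probe set. The median log2 fold change was -0.46 over the 9 tested members and 0.05 over all 11666 genes. It was -0.31 for the members when blocked on spike-in set. With an array left out it ran from -0.99 (without control replicate 3) to -0.23 (without Et1 replicate 1), and it was -0.76 without Et1 replicate 2 and -0.25 without control replicate 1. Without scaling, which moved the median of all tested probe sets from 0.03 to -0.18, it was -0.67. In the list of AP-1 partners and relatives, 0 of 10 tested genes passed, with 3 lower and 7 higher means and a median of 0.14 (-0.08 without scaling). Atf3, a stress-induced relative that pairs with Jun proteins, read 29.7, 9.41 and 13.8 on controls and 76.0, 59.8 and 105.4 on Et1 arrays. All Et1 arrays were above all controls, whose mean of 17.6 lay below the filter. Atf3 thus passed the filter only through the Et1 arrays, and its fitted difference and p are not read here. Maf, a larger leucine zipper factor, read 141, 119.9 and 114 against 44.8, 73.2 and 60.7, a log2 fold change of -1.09 (adjusted p = 0.108 by limma; with the block -0.98, adjusted p = 0.0401). Crem and Mafg stood at 0.64 and 0.49, and with the block at 0.45 and 0.65. For Crem all arrays of the high spike-in set lay above all of the low set.

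Of the 2 tested Egr corepressors and relatives, both had lower means on Et1 arrays. Nab1 averaged 708 ± 39.3 on controls and 432 ± 46.7 on Et1 arrays (SD, n = 3), without overlap (log2 fold change -0.72, adjusted p = 0.0979 by limma; with the block -0.77, adjusted p = 0.00529). Nab2, itself a classical Egr target, stood at -0.50 and overlapped. Its difference of high minus low spike-in set was -0.76 (adjusted p = 0.00231 by limma), and with the block it stood at -0.24. Of 6 tested Egr target genes 0 passed, 5 had lower means, and the median was -0.50 (-0.21 when blocked on spike-in set, and -0.71 to -0.28 with an array left out). F3, the tissue factor that starts blood clotting, averaged 1613 ± 323 on controls and 858 ± 358 on Et1 arrays (SD, n = 3), without overlap (adjusted p = 0.219 by limma; with the block adjusted p = 0.0145). Fgf2, a fibroblast growth factor, and Pdgfa, a chain of platelet-derived growth factor, stood at -0.50 and -0.27. With the block they stood at -0.31 and -0.17, and in both all high-set arrays lay below all low-set arrays. Tgfb1, another of the list, was lower by 1.63 in the high spike-in set and stood at 0.03 with the block.

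Above these factors, 0 of 6 tested genes of serum response factor and its cofactors passed, with 5 lower and 1 higher mean and a median of -0.24. That median was -0.13 when blocked on spike-in set, -0.15 without Et1 replicate 1 and -0.45 without scaling. Srf averaged 453 ± 11.3 on controls and 338 ± 57.6 on Et1 arrays (SD, n = 3; log2 fold change -0.44, adjusted p = 0.352 by limma). Elk4 and Elk3, its ternary complex partners, stood at -0.26 and -0.22. Mrtfa, the actin-sensing cofactor, stood at -0.58, overlapped, and was lower by 1.38 in the high spike-in set. Of 10 tested MAP kinases and kinases above AP-1, 0 passed, 5 had lower and 5 higher means, and the median was 0.04 (-0.18 without scaling). Map2k4 and Mapk9, of the JNK branch, stood at -0.24 and 0.20 and Rps6ka3 at -0.30. Mapk7, whose control mean of 35.3 lay below the filter, passed it only through the Et1 arrays. Its fitted difference and p are not read here, and the 5 higher means and the median partly rest on it.

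Classical AP-1 target genes went both ways. Of 11 tested, 4 had lower and 7 higher means, limma called 1 higher and 1 lower, and the median was 0.02 (-0.19 without scaling). Hmox1, which breaks down heme, rose from 404 ± 78.7 to 1278 ± 358 (SD, n = 3, adjusted p = 0.0391 by limma). Il6, an inflammatory cytokine, averaged 144 ± 33.2 on controls and 34.9 ± 14.4 on Et1 arrays (SD, n = 3). Its Et1 mean lay below the filter of 41.0, so Il6 passed it only through the controls. The call of Il6, the 1 lower, is not read here, and neither are its fitted difference and p. Tfpi2, a protease inhibitor, stood at 1.05 (adjusted p = 0.0609 by limma; with the block 0.95, adjusted p = 0.00423) and Mmp9, a gelatinase, at 0.40, both without overlap.

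Of 31 other immediate-early genes tested, 0 passed, 17 had lower and 14 higher means, and the median was -0.12. Blocked on spike-in set, that median was 0.03. Leaving out Atf3, whose p is not read here, the smallest p belonged to Myc, Btg1 and Plk3, each with all Et1 arrays above all controls. Myc, which drives growth, read 489, 486 and 582 on controls and 705, 801 and 804 on Et1 arrays (log2 fold change 0.57, adjusted p = 0.162 by limma; with the block 0.54, adjusted p = 0.0349). Btg1, an antiproliferative factor, and Plk3, a stress-responsive kinase, stood at 0.50 and 0.90. At an unadjusted p under 0.05, 1 of the 31 was lower and 4 were higher, against 6.5% and 6.9% of all 11666 genes. The 4 include Atf3, so this count partly rests on a gene that passed the filter only through the Et1 arrays.

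**Figure D4:**
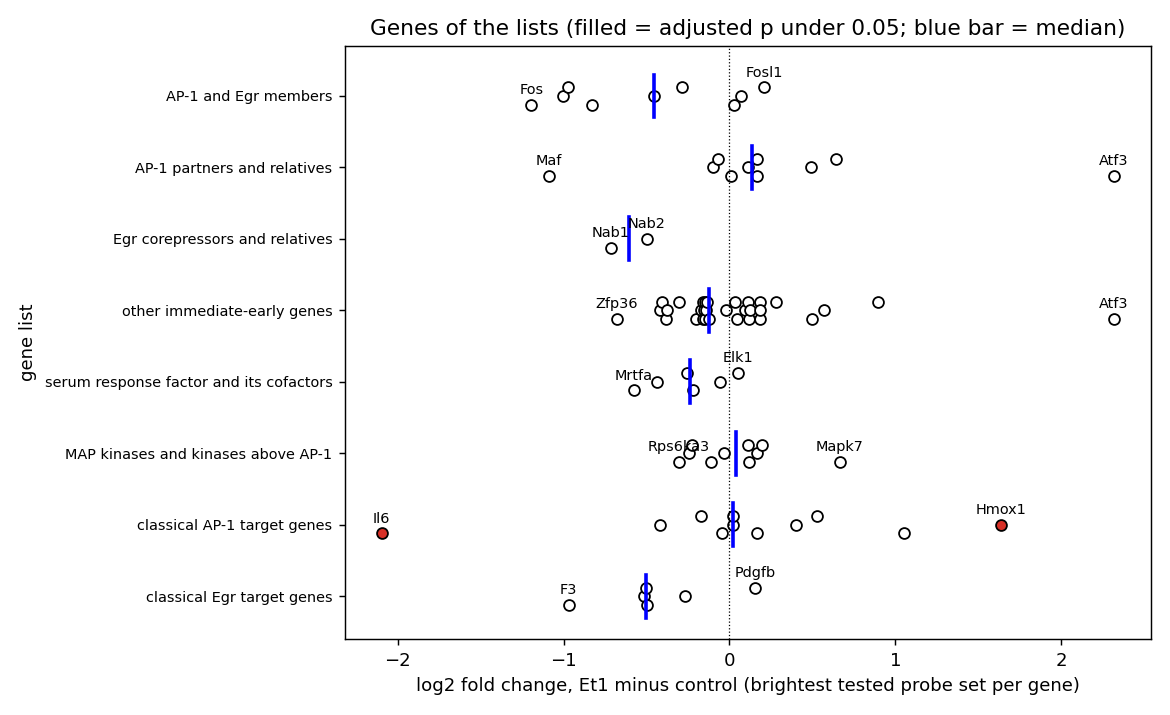
Log2 fold change of Et1 minus control (x axis) of each tested gene, by its brightest tested probe set, in the members and 7 pathway lists (rows); filled points passed an adjusted p of 0.05 and the blue bar is the list's median. Il6 at -2.10 and Hmox1 at 1.64 are the only filled points. The point of Il6 rests on an Et1 mean below the filter and those of Atf3 and Mapk7 on control means below it, and these fits are not read here. The medians of the members and of the Egr targets lie lowest but for the 2 corepressors.

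Summed markers of some other cell types also differed between the groups. The summed signal of 5 smooth muscle and pericyte markers was 2201 to 3180 on controls and 1039 to 1566 on Et1 arrays, with 4 lower and 1 higher mean. Most of that sum was Cnn1, a calponin of contractile cells, with means of 2064 and 929 (adjusted p = 0.0510 by limma, and 0.00360 blocked on spike-in set), and Mcam, an adhesion molecule of pericytes and endothelium, with means of 551 and 239. Mcam also differed between the spike-in sets (high minus low -1.03), and with the block its Et1 difference was -0.88 (adjusted p = 0.00483 by limma). Myh11, which defines smooth muscle, had means of 94.6 and 56.3, and Des 55.8 and 55.2. The 3 Schwann cell markers on the array summed to 228 to 259 and 138 to 182, and 4 adipocyte markers to 280.4 to 378 and 135 to 141, where Adipoq and Lep had means of at most 18.8 and 3.52. Fabp4, a fatty acid binding protein and the 1 adipocyte marker tested, fell from 291 ± 35.4 to 107 ± 12.4 (SD, n = 3, adjusted p = 0.0258 by limma). Their part in the differences of Fos and Egr3 was not tested.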

How the data were processed

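Total RNA of 6 dermal fibroblast cultures was measured on Affymetrix arrays. The deposited table holds 1 linear intensity per probe set and array, which came from the authors' MAS5 run, per the submitters' processing notes; no source used here gives its version or scaling. Of 45101 probe sets, 64 Affymetrix controls were left out. Each array was multiplied to reach the geometric mean of the 6 trimmed means (2%), 139, and 4 zeros were raised to the array's smallest positive value before log2. Probe sets averaging at least 41.0 (the median) entered limma 3.58.1 in R 4.3.3 (eBayes, trend, unblocked), adjusted by Benjamini-Hochberg over 22519 with a threshold of 0.05. The code was tested on simulated data. The number of arrays, 3 a group, limits the precision.

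Symbols came from the platform annotation (34945 probe sets with 1 symbol, 932 with several, 9160 without). Members and lists were chosen with earlier results of these data known, and so was the split by spike-in signal (27 Bacillus probe sets, parted at the largest gap). Named genes are all members, at most 4 of each pathway list by smallest p, any that passed, and, chosen after their values were seen, Tgfb1 and the marker genes. Listed genes without a probe set of 1 symbol were not analysed here. Alternatives were quantile normalization, median centring, no scaling, a filter at the 75th percentile (147) or none, 50 added before log2, no trend, blocks by replicate number or spike-in set, and each array left out.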

Additional observations from a re-analysis of the deposited data

How the results depend on the processing

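Limma called 0 of the 14 member probe sets under quantile normalization, median centring, no filter, 50 added before log2, no intensity trend and with any array left out (0 to 0), and 0 of the 10 left by the filter at the 75th percentile, which removed Fos. It called 1, Fos, without scaling (log2 fold change -1.41, adjusted p = 0.0358) and 1, Fos, when blocked on spike-in set. Over all tested probe sets it called 78, and 44 with median centring, 195 without scaling, 40 without a filter, 7 without the trend, 868 blocked on spike-in set and 4 to 229 with an array left out (4 without control replicate 1 or 2, 229 without control replicate 3).

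Same-numbered arrays deviated together for replicates 2 and 3 (correlation 0.44 and 0.446) but not for replicate 1 (-0.122), and control replicate 1 correlated best with Et1 replicate 2 (0.335). Arrays of the same spike-in set correlated positively (0.259 to 0.446) and arrays of different sets negatively (-0.57 to -0.122). Only the arrays of replicate 1 lay in different sets, so these correlations cannot show whether the numbers pair the arrays. The numbers were not taken to pair them because no label ties them to the division of the cells. With the replicate block limma called 567 probe sets, 2 of them members, Fos (adjusted p = 0.0148) and Egr1 (adjusted p = 0.0447).

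Signs turned in probe sets whose difference was within error. Median centring gave -0.0202 for the dimmer Fosl1 and -0.0260 for the brighter Jun probe set. Without scaling, the Fosl1 probe sets were at -0.0073 and -0.19, the brighter Jun at -0.19 and the brighter Egr2 at -0.15. Blocking on spike-in set gave 0.0227 for the dimmer Jun and 0.0895 for the brighter Jund. With an array left out, ranges were -0.30 to 0.21 for the dimmer Fosl1, -0.0684 to 0.14 for the brighter Jun, -0.22 to 0.0750 for the dimmer Jun, -0.31 to 0.38 for the brighter Egr2 and -0.46 to 0.0834 for the dimmer Egr2. Fos kept its direction wherever it was tested, at -1.41 to -0.85. The cause of these shifts was not tested. Signals near the filter, such as those of Egr3 and Atf3, limit what can be read from them.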

Other observations

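The genes whose log2 profiles over the 6 arrays, each centred on its own mean, lay nearest to that of Fos, out of 11657 tested genes that are no members, were Trib2, Sox11, Dpep1, Crip1 and Peg3. Their root mean square distances to Fos on the log2 scale were 0.127, 0.128, 0.132, 0.138 and 0.143. Sox11, a transcription factor of embryonic tissues, read 409.8, 283 and 251 on controls and 144, 119.8 and 113 on Et1 arrays. Trib2, a pseudokinase, read 381, 276 and 295 against 175, 145 and 141. In all 5 the Et1 arrays lay below the controls and control replicate 1 was highest, as in Fos. They were picked by likeness to Fos on these same arrays, so this shared pattern follows from the choice. Of the 5, Peg3, an imprinted zinc finger gene, passed limma's threshold (log2 fold change -1.23, adjusted p = 0.0357). For the same reason that call is no support for the difference of Fos.

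Nearest to Egr1, taken as the Egr gene with the brightest probe set, were Dkk3, Mchr1, Tmem94, Gstt1 and Pdlim4, at distances of 0.298 to 0.403, wider than those around Fos. Dkk3, a secreted relative of Wnt antagonists, read 319, 180.0 and 160.2 on controls and 164, 109.3 and 73.2 on Et1 arrays. None of the 5 passed limma's threshold (adjusted p of 0.326 to 0.591). They too were picked by their profile over these arrays, so their unadjusted p-values are not read here. These distances describe 6 arrays and carry no test.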
